A study of Mus musculus with 4 samples.

Results

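The expression of 10 genes of the NRF2 pathway was followed in NIH-3T3 cells given small-molecule activators of chaperone-mediated autophagy (CMA), in which lysosomes take up selected proteins one by one through the receptor LAMP2A. The genes were the transcription factor gene Nfe2l2 (NRF2), its inhibitor gene Keap1, and the target genes Nqo1, Hmox1, Gclc, Gclm, Txnrd1, Srxn1, Ptgr1 and Sqstm1. They were chosen by name, with earlier results of these data known. Counts of them beside the shares of all genes therefore describe the values and give no independent support. All array probes whose accession belongs to one of these genes were taken. This gave 11 probes for 10 genes, out of 55378 probes and 36838 gene names with a value on every array. Hmox1 had 2 probes and each other gene had 1.

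NIH-3T3 is an established mouse fibroblast line, labelled wild type. In each group 1 culture was measured on 1 one-colour Agilent whole-genome array, which left 4 arrays in all. The untreated culture received no treatment per its label, and the other cultures were confluent cells kept for 24 h with 20 µM AR7, CA39 or CA77 dissolved in DMSO. AR7 is the original activator, and CA39 and CA77 are later compounds of the same design, all directed at the retinoic acid receptor alpha. The study compared transcriptomes to ask how selective these compounds are, and it also tested treated cells under oxidative stress, the setting in which NRF2 is best known. A vehicle effect cannot be told apart from a compound effect, since the untreated label names no DMSO. All arrays lay on 1 slide, with the untreated array in one slide row and the treated arrays in the other, and the place on the slide cannot be told apart from treatment either. CA77 alone was read in another scan.

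NRF2 is a basic leucine zipper factor that drives genes for detoxification and for the defence against reactive molecules. In resting cells KEAP1 binds NRF2 and hands it to a CUL3 ubiquitin ligase, so that NRF2 protein is short-lived. Electrophiles and oxidants that modify KEAP1 cysteines, or p62 (Sqstm1) when it occupies KEAP1, let NRF2 accumulate, pair with small MAF proteins and bind antioxidant response elements. The control acts mainly on NRF2 protein, which was not measured here, while the array measures RNA.

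Promoter sequences are shown because the target genes are defined by such an element. RefSeq promoters (GRCm38.p6, 250 bases before to 50 bases after each transcript start) were listed for 8 of the 10 genes. They were searched on both strands for the core of the antioxidant response element, TGACNNNGC, where N is any base. It was present in 4 of their 10 listed promoters, those of Nfe2l2, Gclm, Srxn1 and 1 of the 3 of Txnrd1, and in 12.4% of all 32851 promoters of the same length. The related AP-1 core TGACTCA, which overlaps the first bases of the antioxidant element, was present in 1 of the 10, that of Srxn1, and in 5.2% of all promoters. The core GCGTG of the aryl hydrocarbon receptor element was present in 6 of the 10, those of Keap1, Gclm, Txnrd1 and Srxn1, and in 32.4% of all promoters. A match is a description of the letters and not a binding site. Capitals mark TGACNNNGC on either strand in the first 4 sequences below and TGACTCA in that of Srxn1. Nqo1 is shown as the gene with the largest difference between arrays by the values given here, and Gclm as the gene with a match that separated AR7 most from CA77.
Nqo1, chr8:107403206-107403455, minus strand: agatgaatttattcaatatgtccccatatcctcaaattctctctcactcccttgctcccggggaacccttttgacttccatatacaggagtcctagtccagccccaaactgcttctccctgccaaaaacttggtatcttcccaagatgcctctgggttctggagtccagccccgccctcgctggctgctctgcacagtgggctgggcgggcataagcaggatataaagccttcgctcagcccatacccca
Gclm, chr3:122245307-122245556, plus strand: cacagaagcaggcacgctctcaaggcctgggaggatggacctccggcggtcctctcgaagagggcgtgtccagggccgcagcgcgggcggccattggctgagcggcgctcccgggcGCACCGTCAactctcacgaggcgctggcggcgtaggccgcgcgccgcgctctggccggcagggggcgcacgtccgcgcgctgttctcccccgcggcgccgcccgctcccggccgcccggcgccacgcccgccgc
Nfe2l2, chr2:75704883-75704913, minus strand: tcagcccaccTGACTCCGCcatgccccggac
Txnrd1, chr10:82859102-82859134, plus strand, 1 of its 3 listed promoters: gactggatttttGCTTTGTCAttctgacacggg
Srxn1, chr2:152105410-152105497, plus strand: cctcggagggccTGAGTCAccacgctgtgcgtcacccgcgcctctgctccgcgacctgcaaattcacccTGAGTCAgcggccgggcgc
All shown bases lie before the transcript start and read 5′ to 3′ on the strand of the gene. The Nqo1 stretch holds no match, and the TGACNNNGC match of Srxn1 lies after the start and is not shown.

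Levels are given as normalized log2 intensity of a probe, a scale on which 1 unit is a 2-fold difference. Levels of different probes cannot be set against each other, because probes differ in brightness, so each gene is compared only with itself across arrays. No group had a replicate culture, so no test could be run and no p-value is given. The only repeat measurements were 399 probes printed 10 times on each array, which gave a tolerance of 0.16 (log2, 1.12-fold) for the difference of 2 arrays. This tolerance covers measurement within an array and not the spread between cultures. All 11 probes were printed once and were well above background on all 4 arrays, and no spot was saturated. Ptgr1 was the dimmest, with a raw spot signal of 110 scanner units over a background of 20 on the untreated array. At the other end, Txnrd1 reached 63350 scanner units with AR7.

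**Figure D1:**
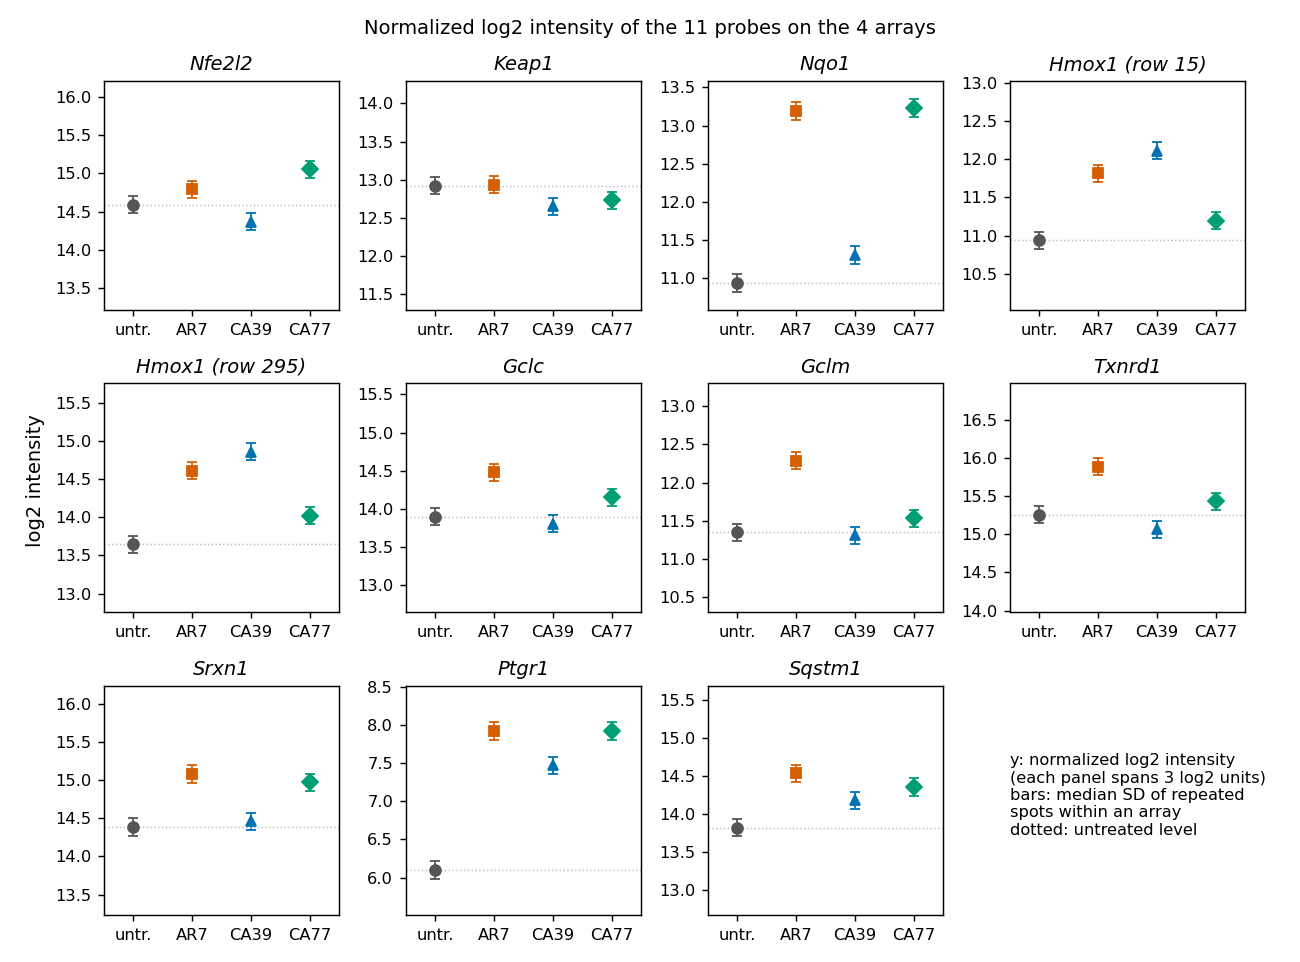
Normalized log2 intensity of each probe (y axis, 3 log2 units per panel) on the untreated, AR7, CA39 and CA77 arrays (x axis). Each symbol is 1 array, bars are the median SD of repeated spots within an array (0.09 to 0.12 by array), and the dotted line marks the untreated level. Nqo1 was high with AR7 and CA77, Hmox1 was highest with CA39 by both probes, and Gclm stood apart with AR7.

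Most of the 10 genes were higher with AR7 and with CA77, and the genes were mixed with CA39. With AR7, 9 of 10 lay above untreated by more than the tolerance (15% of all genes compared) and 0 below (17.5%), and the median difference was 0.70, while the median of all genes was 0.00. With CA77, 9 lay above (19.4% of all genes) and 1 below (25.5%), with a median of 0.42 against -0.01 for all genes. With CA39, 4 lay above (20.9% of all genes), 3 below (27.2%) and 3 within the tolerance, with a median of 0.02 against 0.00, so that the number below was near the share of all genes. All genes compared include those detected on only 1 of both arrays, whereas the 10 genes were detected on every array. The order of AR7 and CA77 turned with median scaling, where the medians were 0.30 with AR7 and 0.42 with CA77 and CA77 lay above AR7 for 7 of 10 genes. Relative to the shift of all genes under that scaling the medians were 0.64 and 0.44. Under every alternative processing run for each gene, 8 of 10 kept their direction under AR7, 9 under CA39 and 10 under CA77, and the exceptions were Nfe2l2 and Keap1 with AR7 and Srxn1 with CA39. In a culture, more cells with the RNA and more RNA per cell cannot be told apart.

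Past 2-fold higher were Nqo1 and Ptgr1 with AR7, Hmox1 and Ptgr1 with CA39, and Nqo1 and Ptgr1 with CA77. That was 2 of 10 genes for each compound, where 1.8% of all genes compared were past 2-fold higher with AR7, 3.69% with CA39 and 1.93% with CA77. Past 2-fold lower were 0 of the 10 genes with any compound, where the shares of all genes were 0.388% (AR7), 1.16% (CA39) and 0.548% (CA77). At a 1.5-fold limit, 7 of 10 were higher with AR7 (3.26% of all genes), 2 with CA39 (6.91%) and 2 with CA77 (3.74%). The additional 5 with AR7 were Hmox1, Gclm, Txnrd1, Srxn1 and Sqstm1. With median scaling these 5 lay between 0.21 and 0.57, under that limit, which left 2 of 10 with AR7 against 3 with CA77, while relative to the shift of all genes under that scaling 6 of 10 passed with AR7. Just under that limit were Gclc with AR7, at 0.58 (log2), and Srxn1 with CA77, also at 0.58.

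The array on which a gene was brightest was also counted. AR7 was the highest of the 4 arrays for 6 of the 10 genes, against 21.9% of the 20594 genes detected on all arrays. CA77 was the highest for 2 (20.9% of all genes), CA39 for 1 (30.3%) and untreated for 0 (26.7%), while Ptgr1 had the same value with AR7 and CA77. With median scaling, Gclc, Srxn1, Sqstm1 and Ptgr1 were highest with CA77 and Keap1 on untreated, which left Gclm and Txnrd1 for AR7. The lowest array was untreated for Nqo1, Hmox1, Srxn1, Ptgr1 and Sqstm1 (17.9% of all genes) and CA39 for Nfe2l2, Keap1, Gclc, Gclm and Txnrd1 (37.8%). With median scaling Keap1 was lowest with AR7, and with 75th percentile scaling of the processed signal or of the deposited table Srxn1 was lowest with CA39.

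**Figure D2:**
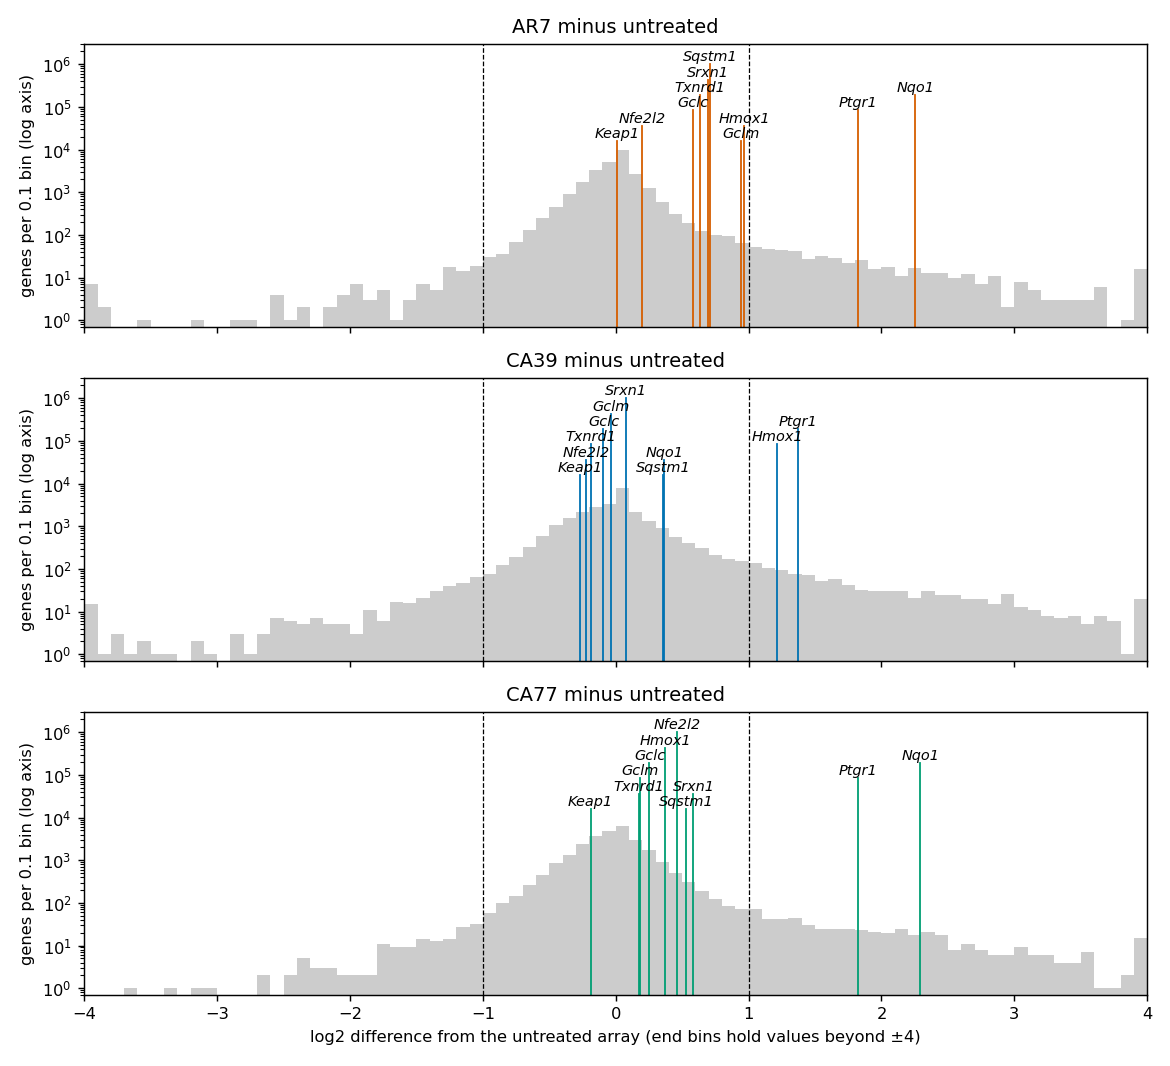
Log2 difference from the untreated array (x axis) for all genes compared, as genes per bin of 0.1 on a log axis, with the 10 genes as coloured lines whose height carries no value, dashed lines at a 2-fold difference, and values beyond the range held in the end bins. With AR7 all lines but those of Keap1 and Nfe2l2 lie at 0.58 or above, with CA39 only Hmox1 and Ptgr1 lie past 1, and with CA77 only Nqo1 and Ptgr1 do.

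The genes of the factor and its inhibitor stayed within 1.5-fold of untreated. Nfe2l2 stood at 14.59 on untreated, 14.79 (AR7), 14.37 (CA39) and 15.06 (CA77). It was therefore highest with CA77 and lowest with CA39, by 0.20 (AR7, -0.20 with median scaling), -0.22 (CA39) and 0.46 (CA77) relative to untreated. With CA77, 5.23% of all genes lay at least as far above untreated. Keap1, the adaptor that presents NRF2 for ubiquitination, stood at 12.92, 12.94, 12.65 and 12.73 in the same array order. It matched untreated with AR7 (0.01, and -0.37 with median scaling) and was lower by more than the tolerance with CA39 (-0.27) and CA77 (-0.19).

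Partners and regulators of NRF2 had medians near untreated. Of 16 listed genes, 15 could be compared with each compound, with medians of 0.00 (AR7), -0.01 (CA39) and -0.01 (CA77). Past 2-fold were 0, near the shares of all genes (1.8%, 3.69% and 1.93% higher, 0.388%, 1.16% and 0.548% lower). With CA39, 3 lay above untreated by more than the tolerance (20.9% of all genes) and 4 below (27.2%). By the brightest probes their widest differences came with CA39. Mafk, a small MAF partner, differed by -0.52 and Cul3, the ligase scaffold, by -0.36. The ubiquitin ligase gene Btrc differed by 0.49, although its other probe gave -0.25, and the related factor gene Nfe2l1 by 0.46. Gsk3b, a kinase that marks NRF2 for degradation, differed by -0.26 with AR7, and its other probes gave -0.18 and -0.62. Bach1, a repressor of NRF2 target genes, differed by 0.18, 0.06 and 0.30 with AR7, CA39 and CA77.

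Nqo1, which encodes a quinone reductase and is the most used readout of NRF2 activity, had the widest range of the 10 genes by the values given here. With the processed signal of the scanner software Ptgr1 had a wider one, up to 2.57 against 2.31 for Nqo1. The level of Nqo1 was 10.94 on untreated, 13.19 (AR7), 11.30 (CA39) and 13.23 (CA77). The AR7 and CA77 arrays stood far above the other two, and AR7 and CA77 lay within the tolerance of each other. Relative to untreated it differed by 2.25 (4.77-fold) under AR7, 0.37 (1.29-fold) with CA39 and 2.29 (4.90-fold) with CA77. Only 0.452% of all genes lay at least as far above untreated with AR7 and 0.484% with CA77, against 11.1% with CA39. The raw spot signal was 1997 scanner units on untreated, 9902 (AR7), 2684 (CA39) and 8812 (CA77), over backgrounds of 19 to 21.

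The genes whose pattern was nearest to Nqo1 were sought over the 20594 genes detected on all 4 arrays, by the Euclidean distance of log2 values centred on each gene's mean. The nearest with a gene symbol were Gipc2 (distance 0.68) and Dppa5a (0.95), and the other 3 of the nearest 5 carried no gene symbol. Gipc2 stood at 8.16 on untreated, 9.66 (AR7), 7.84 (CA39) and 9.58 (CA77). Dppa5a stood at 8.62, 11.26, 9.33 and 10.12. Among the NRF2 genes Ptgr1 was the nearest to Nqo1, at a distance of 1.19 with 27 genes nearer, followed by Srxn1 at 1.51 with 118 nearer. Hmox1 was the farthest at 2.16, with 12146 genes nearer. These distances rest on 4 arrays and carry no test.

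Nqo1 is also a target of the aryl hydrocarbon receptor, so other targets of that receptor are given beside it. Of 6 listed genes only 3 could be compared. Cyp1a1 and Cyp1a2, the defining targets, and Ahrr were not well above background on any array. Cyp1b1 stood at 12.68 on untreated, 12.68 (AR7), 14.03 (CA39) and 13.83 (CA77). It was past 2-fold higher with CA39 (1.34) and CA77 (1.15) and not with AR7 (-0.01), a pattern unlike that of Nqo1. The receptor gene Ahr was higher with AR7 (0.80) and CA77 (0.49) and not with CA39 (-0.01), so that AR7 and CA77 were above CA39 as for Nqo1. Tiparp differed by 0.04, -0.35 and 0.33. The part of this receptor in the Nqo1 values was not tested.

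Ptgr1, a reductase of reactive alkenals and of prostaglandin and leukotriene products, was the one gene of the 10 past 2-fold with all 3 compounds. Its level was 6.10 on untreated, 7.92 (AR7), 7.47 (CA39) and 7.92 (CA77). All treated arrays were above the untreated array, AR7 and CA77 by 1.82 (3.54-fold) each and CA39 by 1.37 (2.59-fold). These levels are close to the detection limit. The 1st percentile of detected signal was 5.88 on untreated, 6.82 (AR7), 6.87 (CA39) and 6.26 (CA77). The raw spot signal was 110 scanner units on untreated, 300.5 (AR7), 220 (CA39) and 248 (CA77). The size changed with the processing, from 1.30 to 2.51 with AR7, 0.94 to 1.94 with CA39 and 1.30 to 2.57 with CA77, and with a background offset of 50 the CA39 value (0.94) was under 2-fold.

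Hmox1, the stress-inducible heme oxygenase, was the gene for which CA39 gave the highest level. Its brighter probe stood at 13.65 on untreated, 14.61 (AR7), 14.86 (CA39) and 14.02 (CA77). Its dimmer probe, at a distant place on the array, stood at 10.94, 11.81, 12.11 and 11.19. Both probes gave the same order, CA39 above AR7 above CA77 above untreated. The differences by the brighter probe were 0.97 (1.95-fold) under AR7, 1.21 (2.32-fold) under CA39 and 0.37 (1.30-fold) under CA77, and those by the dimmer probe were 0.88, 1.17 and 0.26. The probes thus differed from each other by less than the tolerance in every comparison. Beside the CA39 value, 2.77% of all genes lay at least as far above untreated.

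Of the other heme and iron genes, Slc40a1 had the Hmox1 order and Blvrb had not. All 9 listed genes were detected on every array, with medians of 0.19 (AR7), -0.01 (CA39) and 0.17 (CA77), and 1 gene was past 2-fold higher with each compound, where the shares of all genes were 1.8%, 3.69% and 1.93%. With AR7 and CA77 it was Blvrb, the biliverdin reductase of fetal heme breakdown, at 1.47 and 1.07, while CA39 gave 0.31. With CA39 it was the iron exporter Slc40a1, at 1.13, while AR7 gave 0.48 and CA77 0.17. The heme transporter Slc48a1 differed by 0.61, -0.28 and 0.44. Hmox2, the constitutive heme oxygenase, stayed within the tolerance (-0.01, 0.00 and -0.10), and Blvra was at -0.01, -0.28 and -0.05. Ferritin heavy chain Fth1 differed by 0.19, -0.03 and 0.15.

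The genes of both subunits of glutamate-cysteine ligase, the first enzyme of glutathione synthesis, were higher with AR7, Gclc by only 0.17 with median scaling. Gclc, the catalytic subunit, stood at 13.90 on untreated, 14.48 (AR7), 13.81 (CA39) and 14.15 (CA77). Gclm, the modifier subunit, stood at 11.35, 12.29, 11.31 and 11.53. In both genes the AR7 array was the highest (for Gclc the CA77 array with median scaling) and the CA39 array the lowest. Gclc differed from untreated by 0.58 under AR7, -0.09 with CA39 and 0.25 with CA77. Gclm differed by 0.94 (1.92-fold), -0.04 and 0.18. For Gclm, 1.96% of all genes lay at least as far above untreated with AR7, 40.4% at least as far below with CA39 and 16.9% at least as far above with CA77.

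With AR7 and CA77, other glutathione genes held the largest differences of the pathway, while with CA39 Cbr3 (2.81), given below, differed by more. Of 20 listed genes, 18 could be compared, with medians of 0.74 (AR7), 0.00 (CA39) and 0.49 (CA77). With AR7, 5 were past 2-fold higher (1.8% of all genes), and with CA39 (3.69%) and CA77 (1.93%), 3 each. The alpha class transferases, which conjugate glutathione to electrophiles, led the list with AR7 and CA77, while Slc7a11 and Chac1 led it with CA39. Gsta4, which acts on the lipid peroxidation product hydroxynonenal, stood at 9.84 on untreated, 14.53 (AR7), 10.99 (CA39) and 14.02 (CA77). It was 25.8-fold higher with AR7, 2.21-fold with CA39 and 18.1-fold with CA77. Gsta3 differed by 3.67, -0.06 and 2.97, and its other probe by 3.03, -0.21 and 2.48. Gsta2 differed by 7.50 with AR7 and 6.84 with CA77 while CA39 left it below detection, but near-identical copies of this gene exist, and which copy the probe measured is uncertain.

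The mu and pi class transferases and microsomal transferases were higher by less with AR7 and CA77. Gstm1 differed by 0.84, -0.17 and 0.76, Gstp1 by 0.83, -0.27 and 0.64, and Mgst1 by 1.09, -0.89 and 0.73, in the order AR7, CA39 and CA77. These 3 lay below untreated with CA39, whereas Gstm2 (0.49, 0.15 and 0.37), Gstm3 (0.70, 0.09 and 0.67) and Mgst2 (0.85, 0.23 and 0.59) did not. Cystine import and glutathione breakdown gave another order. Slc7a11, the cystine carrier of the glutamate exchanger, stood at 6.76 on untreated, 8.41 (AR7), 8.81 (CA39) and 7.31 (CA77), so that it was highest with CA39 like Hmox1. Chac1, a glutathione-degrading enzyme, was higher with CA39 alone, by 1.99 against 0.00 with AR7 and -0.36 with CA77. Slc3a2, the partner chain of Slc7a11, differed by 0.03, 0.31 and -0.34. The ligase Gss (0.02, -0.09 and 0.01) and the peroxidases Gpx1 (-0.05, -0.14 and 0.13) and Gpx4 (0.16, 0.01 and 0.02) stayed close to untreated, the peroxidase Gpx2 was at 0.78, 0.00 and 0.43, and Glrx was at -0.11, -0.44 and -0.17.

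In the thioredoxin system both target genes were higher with AR7, and Srxn1 was higher with CA77 by more than Txnrd1. Txnrd1, the cytosolic thioredoxin reductase, stood at 15.26 on untreated, 15.89 (AR7), 15.06 (CA39) and 15.43 (CA77). Srxn1, which repairs over-oxidized peroxiredoxins, stood at 14.39, 15.08, 14.46 and 14.97. Both were highest with AR7 (Srxn1 with CA77 under median scaling) and above untreated with CA77, Txnrd1 by little more than the tolerance. Txnrd1 differed from untreated by 0.63 (1.55-fold), -0.19 and 0.18, and Srxn1 by 0.69 (1.62-fold), 0.07 and 0.58.

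Other thioredoxin and peroxide genes differed by less than 2-fold by their brightest probes. All 14 listed genes were detected on every array, with medians of 0.08 (AR7), 0.12 (CA39) and 0.05 (CA77). Past 2-fold were 0 with any compound, near the shares of all genes (1.8%, 3.69% and 1.93% higher, 0.388%, 1.16% and 0.548% lower). With CA39, 6 lay above untreated by more than the tolerance (20.9% of all genes) and 2 below (27.2%). Prdx1, a peroxiredoxin, differed by 0.37 with AR7 and 0.42 with CA77 and not with CA39 (0.00). Catalase (Cat) differed by 0.56, 0.15 and 0.20, and the thioredoxin inhibitor Txnip by 0.08, 0.95 and 0.36, with another Txnip probe at 1.06 with CA39. The lowest genes were Prdx2, at -0.29 with CA39, and Sesn2, at -0.28 with CA77.

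Genes that supply NADPH, the electron source of the reductases above, lay above untreated by more than the tolerance for 5 of 7 under AR7, 3 under CA39 and 4 under CA77, where the shares of all genes were 15%, 20.9% and 19.4%. Of these 5, Tkt at 0.16 lay at the tolerance. The medians of 7 genes were 0.23 (AR7, and -0.16 with median scaling), 0.03 (CA39) and 0.23 (CA77). Pgd, of the pentose phosphate pathway, was past 2-fold higher with AR7 (1.05) and under that limit with CA39 (0.41) and CA77 (0.57). Taldo1, of the same pathway, differed by 0.43, 0.00 and 0.41, Pgls by -0.08, 0.03 and -0.25, and the malic enzyme Me1 by 0.23, -0.05 and 0.23. The Pgd call held only narrowly, since it was lost in the processed signal of the scanner software and with median scaling. G6pdx, the first enzyme of that pathway, differed by 0.79, -0.05 and 0.36. Idh1 was past 2-fold higher with CA39 alone (1.07), against -0.24 with AR7 and -0.14 with CA77.

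Sqstm1, which encodes p62, links the pathway to autophagy, since p62 is an NRF2 target, a selective autophagy receptor and a binder of KEAP1. Its level was 13.82 on untreated, 14.54 (AR7), 14.18 (CA39) and 14.36 (CA77). All treated arrays lay above untreated by more than the tolerance, AR7 by 0.71 (1.64-fold), CA39 by 0.36 (1.28-fold) and CA77 by 0.53 (1.45-fold). Beside these, 2.70%, 11.4% and 4.29% of all genes lay at least as far above untreated. Of the 10 genes, Ptgr1, Hmox1, Nqo1 and Sqstm1 were the ones above untreated by more than the tolerance with every compound, 4 of 10 where 2.75% of all genes were.

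Other selective autophagy receptors and genes that act with them, together named autophagy receptors below, had medians near untreated. All 10 listed genes could be compared with each compound, with medians of 0.09 (AR7), 0.08 (CA39) and 0.08 (CA77). Optn, an adaptor of mitophagy, was the 1 of 10 past 2-fold higher with CA39 (1.96, where 3.69% of all genes were), while the AR7 and CA77 arrays left it below detection. Its untreated level of 6.04 was close to the 1st percentile of detected signal there, 5.88. Of the rest, Calcoco1 differed by 0.49, 0.06 and 0.35, Gabarap by -0.13, 0.43 and 0.06, Tax1bp1 by 0.12, -0.26 and 0.03, and the kinase Tbk1 by 0.17, -0.32 and 0.16. Nbr1, the receptor nearest to p62 in domain layout, differed by 0.07, 0.00 and 0.40.

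Some further detoxifying targets of NRF2 had AR7 and CA77 above CA39. Of 23 listed genes, 21 could be compared with each compound, with medians of 0.31 (AR7), 0.00 (CA39) and 0.33 (CA77). Past 2-fold higher were 3 with AR7 (1.8% of all genes), 1 with CA39 (3.69%) and 1 with CA77 (1.93%), and 1 was past 2-fold lower with CA39 (1.16%). The 1 of 21 higher with CA39 is near the share of all genes. With median scaling the AR7 median was 0.00 and 1 gene was past 2-fold higher with AR7. Aldh3a1, an aldehyde dehydrogenase, stood at 11.96 on untreated, 15.96 (AR7), 11.99 (CA39) and 15.54 (CA77). The AR7 and CA77 arrays were thus far above untreated, the CA39 array was within the tolerance, and the other probe gave differences of 4.67, -0.12 and 4.41. Pir differed by 1.14, 0.30 and 0.73, Aox1 by 1.13, 0.77 and 0.74, and the efflux pump Abcc4 by 0.93, 0.00 and 0.49. Cbr3, a carbonyl reductase, was instead higher mainly with CA39 (0.52, 2.81 and 0.36), and the related Cbr1 was lower there (0.01, -0.67 and 0.08). Aldh1a1, a retinaldehyde dehydrogenase, was lower with CA39 by 2.01 and differed by -0.39 with AR7 and -0.58 with CA77.

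Lists of other stress pathways were set beside the NRF2 genes, because Hmox1, Slc7a11, Chac1 and Sesn2 answer to more than one of them. ATF4 targets had medians of -0.03 (AR7), 0.47 (CA39) and -0.15 (CA77), with 3 of 9 compared genes past 2-fold higher with CA39 (3.69% of all genes). With AR7 (1.8%) and with CA77 (1.93%) it was 0 of 8, near the shares of all genes. Those past 2-fold with CA39 were Chac1 (1.99), Trib3 (1.48) and Vldlr, which was not well above background on untreated and was at least 3.54-fold higher with CA39. Phgdh, of serine synthesis, was at -0.16, 0.08 and -0.14. Chac1 and Sesn2 stand in this list and in those above. Heat shock genes had 0 of 6 past 2-fold with each compound, near the shares of all genes (1.8%, 3.69% and 1.93% higher, 0.388%, 1.16% and 0.548% lower). Their medians were 0.10, -0.05 and 0.15, and the widest difference was that of Hsph1 with CA39 (-0.55). Hspa1a was at 0.23, -0.27 and 0.34, Dnajb1 at 0.03, -0.02 and 0.25 and Hspa8 at 0.07, -0.04 and 0.01. The metallothionein genes Mt1 and Mt2 were at 0.06, 0.27 and -0.06 and at 0.26, 0.23 and 0.08, and the zinc exporter Slc30a1 at -0.16, 0.01 and 0.04.

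**Figure D3:**
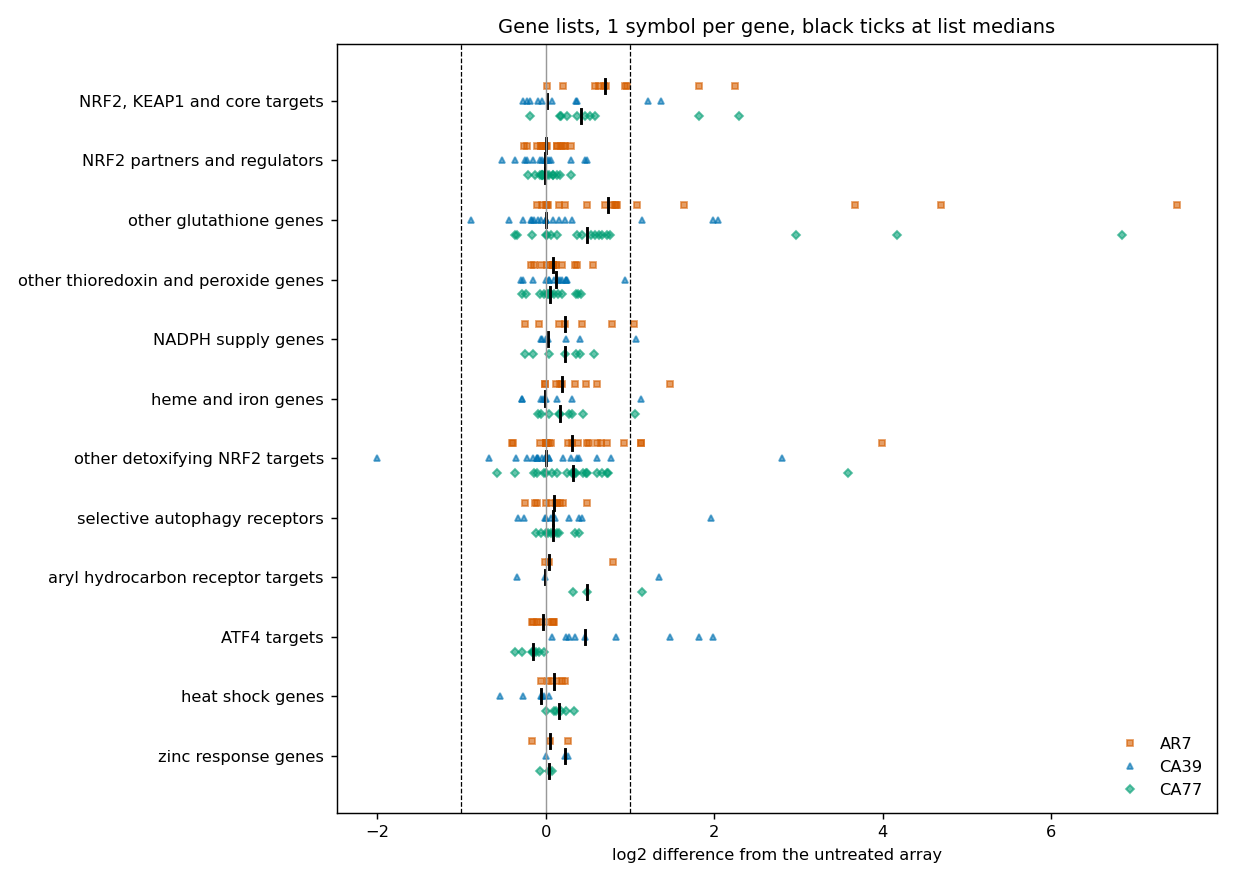
Log2 difference from the untreated array (x axis) for each gene of the NRF2 set and of the other lists (y axis), with 1 symbol per gene and compound, black ticks at the list medians and dashed lines at a 2-fold difference. Medians with AR7 reach 0.70 in the NRF2 set and 0.74 in the other glutathione genes, while the ATF4 targets are the list with the highest median for CA39, at 0.47.

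The compounds were compared with each other at the same dose and time, in 3 pairs, as single arrays with no test. These pairs do not use the untreated array. Between CA39 and AR7, Nqo1 was lower with CA39 by 1.89 (log2), which made 1 of 10 genes past 2-fold lower, where 2.43% of all genes compared were past 2-fold lower (with the processed signal and with the deposited table Gclm was past it too, by 1.02 to 1.03), and 0 were past 2-fold higher (3.72% of all genes). Gclm followed at -0.98, Txnrd1 at -0.82, Gclc at -0.67, Srxn1 at -0.62 and Ptgr1 at -0.45. Hmox1 was the one gene that was higher with CA39 than with AR7, by 0.25 with the brighter probe and 0.30 with the dimmer one, although with median scaling Keap1 was at 0.07 and Sqstm1 at 0.00. The median of the 10 genes was -0.54, and that of all genes was -0.03.

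CA77 and AR7 were closer to each other. Past 2-fold were 0 of 10 genes in either direction, where 1.16% of all genes were higher and 1.4% lower with CA77. The pair lay within the tolerance for Nqo1 (0.04), Ptgr1 (0.00) and Srxn1 (-0.11), which means that a difference of up to 0.16 within arrays could not be seen and does not show equal action. CA77 gave lower values than AR7 for Gclm (-0.75), Hmox1 (-0.59 and -0.62 by its probes), Txnrd1 (-0.46) and Gclc (-0.33, but 0.08 with median scaling), and a higher value for Nfe2l2 (0.26). With median scaling Txnrd1 was within the tolerance (-0.03), while Nfe2l2 (0.67), Nqo1 (0.44) and Srxn1 (0.31) were higher with CA77 by more than it. Between CA77 and CA39, Nqo1 was higher with CA77 by 1.93, the only 1 of 10 genes past 2-fold higher (2.24% of all genes), and 0 were past 2-fold lower (3.98%). Nfe2l2 was higher with CA77 by 0.69, Srxn1 by 0.51 and Ptgr1 by 0.45, and Hmox1 was lower by 0.84 with the brighter probe and 0.92 with the dimmer one.

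**Figure D4:**
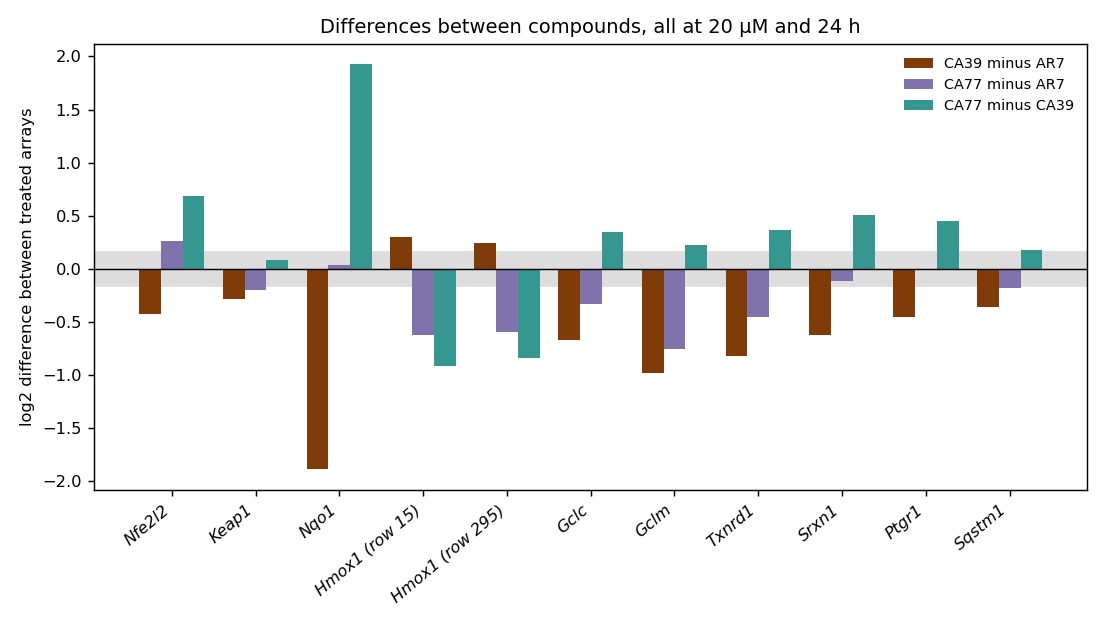
Log2 difference between treated arrays (y axis) for each probe (x axis), all at 20 µM and 24 h, with the grey band at the tolerance of 0.16. Bars for CA39 minus AR7 are below 0 for every gene but Hmox1 (with median scaling also Keap1, at 0.07, and Sqstm1, at 0.00, are not), and the longest bars are those of Nqo1, at -1.89 for CA39 minus AR7 and 1.93 for CA77 minus CA39.

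Position on the array entered the counts over all genes and was therefore checked for the 11 probes. The array has 384 grid rows, and differences past 2-fold were denser in the first 160, where 3.47% (AR7), 5.16% (CA39) and 3.81% (CA77) of genes lay past 2-fold above untreated, against 0.588%, 2.63% and 0.548% in the remaining rows. Of the 10 genes, 6 lay in the first 160 rows by their brightest probe, among them Nqo1 in row 15, while Nfe2l2, Txnrd1, Ptgr1 and Hmox1 lay in the rows over 160. Spots around each probe, within 5 rows and 5 columns, had medians near untreated. Around Nqo1 their median difference was -0.02 (AR7), 0.03 (CA39) and -0.01 (CA77), over 45 to 56 detected spots, and 1, 3 and 1 of these were past 2-fold. Around all 11 probes the neighbour medians lay between -0.11 and 0.09, and up to 7 neighbours were past 2-fold in either direction, the most being 7 of 71 around Srxn1 with AR7 and 6 of 69 around the dimmer Hmox1 probe with CA77. Minus these medians, Nqo1 was at 2.27 with AR7 and 2.30 with CA77, Ptgr1 at 1.87, 1.40 and 1.86, and Hmox1 at 1.19 with CA39. Spots around the genes of the other lists were not checked. Several of those past 2-fold lay in the first 160 rows, such as Blvrb in row 1, Pgd in row 7, Slc7a11 in row 16, and Slc40a1 and Gsta2 in row 26.

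Other scaling moved most AR7 values together. With arrays scaled to their medians, the median difference of all genes detected on every array was -0.34 with AR7, against -0.01 with quantile normalization, and 9 of the 10 genes were lower with it, all but Ptgr1 (1.86, against 1.82). Nqo1 with AR7 was then at 1.88, Gclm at 0.55, Gclc at 0.17, Nfe2l2 at -0.20 and Keap1 at -0.37. Relative to the shift of all genes these values were 2.22, 0.89, 0.51, 0.14 and -0.03. The same scaling turned the sign of CA77 minus AR7 for Keap1 (0.19), Gclc (0.08), Srxn1 (0.31) and Sqstm1 (0.23), and it raised that of Nqo1 to 0.44. The order of Nqo1, with AR7 and CA77 above CA39, and of Hmox1, with CA39 above AR7 above CA77, was the same under every alternative run.

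**Figure D5:**
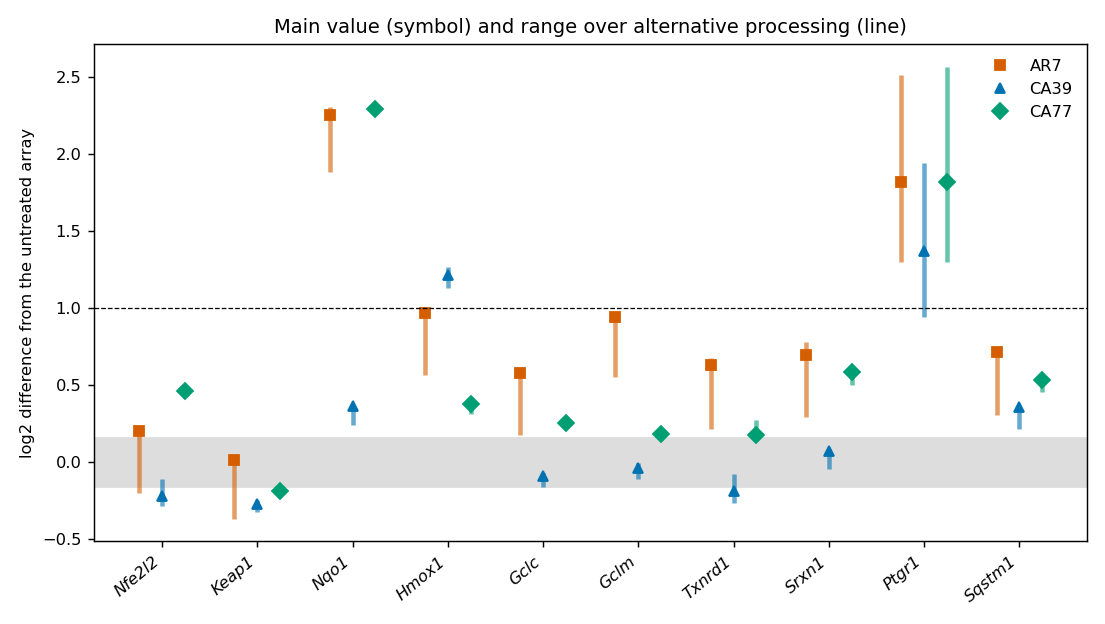
Log2 difference from the untreated array (y axis) for each gene by its brightest probe (x axis), with symbols for the main value and lines for the range over the alternative processing, a grey band at the tolerance and a dashed line at a 2-fold difference. For AR7 the low end of the lines is the median scaling value except for Ptgr1, whose lines are the longest, from 1.30 (background offset of 50) to 2.51 with AR7.

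Marker genes of cell types were read by detection, and their median levels can be compared only across arrays and not between cell types. Some markers of other cell types were detected on all arrays, among them Kdr (11.91 on untreated), Cd3e (10.38) and Map2 (9.33). Of 10 fibroblast markers, 9 were detected on all arrays, with median levels of 15.72 on untreated, 15.12 (AR7), 16.44 (CA39) and 15.28 (CA77), and Pdgfrb was detected with CA39 alone. Of 5 epithelial markers, 2 were detected on all arrays, Cdh1 was detected on none, and their median level was 6.70 on untreated, 6.73 (AR7), 7.53 (CA39) and 6.33 (CA77). Endothelial markers (3 of 4 detected on all arrays) had medians between 7.78 and 8.03, neural markers (2 of 4) between 7.26 and 8.01 and blood markers (1 of the 4 on the array) between 6.67 and 6.88. With CA39, the fibroblast genes Col1a1 (1.06, against -1.04 with AR7), Pdgfra (1.19), Fn1 (1.47) and Pdgfrb (at least 7.48-fold) were past 2-fold higher, while S100a4 was at -0.22. Of all genes 3.69% were past 2-fold higher with CA39. Of the epithelial markers, Krt8 (2.38) and Epcam (at least 3.14-fold, detected with CA39 alone) were past 2-fold higher with CA39, Krt18 was at 0.98 and Cldn4 was below detection with CA39. Of the neural markers, Tubb3 was past 2-fold higher with CA39 (2.78), while Map2 was at 0.57, Gfap at -0.40 and Rbfox3 was below detection with CA39. Their part in the CA39 values of the NRF2 genes was not tested.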

How the data were processed

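Gene expression was measured in 4 NIH-3T3 cultures, 1 array per group, mapped from the labels. The authors labelled total RNA with Cy3 and scanned 1 slide. Deposited scanner files, from Feature Extraction 10.7.3.1 per the file headers, hold spot intensity on a linear scale. The deposited series table equals the background-subtracted intensity of the same spots (medians 90.6, 91.1, 84.1 and 76.0 for untreated, AR7, CA39 and CA77), without scaling or log transformation. The labels name oligo and RMA, whose values were not used here.

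Spot and background medians were corrected by normexp with no offset in limma 3.58.1 (R 4.3.3), and 59305 gene-probe spots per array were quantile normalized and put on the log2 scale. Control spots and spots marked as outliers were left out (142 to 328 per array), and spots of a probe were averaged. Detection required that more than 50% of the spots of a probe were marked well above background, which held for 52.2% to 69.7% of probes by array. RefSeq transcripts of GRCm38.p6, matched by accession without version, named 27512 of 55378 probes. The array design cites an earlier build, so no probe coordinates are given. The brightest probe stood for a gene.

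A gene was past 2-fold when its difference was at least 1 (log2) and it was detected on at least 1 of both arrays. Undetected values were raised to the 1st percentile of detected signal on their array, so that folds against them are lower bounds, and where the higher of both values was undetected the difference was taken as 0. The number of arrays limits the precision, and no test was possible. The steps were tested on simulated data.

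The members and lists were chosen with earlier results of these data known. Named are all members, list genes past 2-fold, the 2 highest and 2 lowest of a list among genes detected on all arrays, and the 5 genes nearest to the member with the widest range. Other genes and cell markers were named for their role or size, after their values were seen. Alternatives were other background corrections, signals, scalings, floors, filters, probe rules and array regions.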

Additional observations from a re-analysis of the deposited data

How the results depend on the processing

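With 1 array per group, leaving out a replicate could not be run. No paired analysis was possible because each group has 1 array and no test was made. The correction by neighbouring spots was chosen after seeing the data. Unless the construction of an alternative shows it, the cause of a shift was not tested. The 10 genes were detected everywhere on single spots, so the floor, the filters and the marked spots could not move them. Over 6 alternatives of background, signal, scaling or neighbouring spots, 286 of 330 differences of single genes and 17 of 18 medians stayed within the tolerance of 0.16. Over the same 6, 35 of 36 counts past 2-fold stayed within 1.5 times. These 6 leave out the 1.5-fold threshold, the median over probes and the restriction to part of the grid rows. The threshold and the restriction also moved counts, and the restriction moved the CA39 median. With every alternative included, 34 of 36 medians and 74 of 78 counts of the NRF2 genes stayed within these limits. Over all alternatives 346 of 363 list medians and 370 of 396 list counts stayed within them. No NRF2 gene past 2-fold turned its direction, whereas smaller differences did, as Nfe2l2 with AR7 (-0.20) and Gclc in CA77 minus AR7 (0.08) with median scaling. Single list genes were not recomputed.

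With median scaling, under which all genes detected on every array shifted by -0.34 with AR7, the AR7 medians were 0.30 for the NRF2 genes, 0.37 for other glutathione genes, 0.00 for other detoxifying targets, -0.16 for NADPH supply, -0.23 for heme and iron, -0.27 for autophagy receptors, -0.32 for heat shock, -0.33 for NRF2 partners and regulators and for other thioredoxin and peroxide genes, -0.35 for aryl hydrocarbon receptor targets, -0.38 for zinc response and -0.42 for ATF4 targets, and AR7 counts past 2-fold were 0 for NADPH supply and 1 for other detoxifying targets. Relative to the shift the NRF2 median was 0.64.

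In grid rows over 160, which hold fewer genes, the NRF2 count was 1 with AR7 and 1 with CA77, and the CA39 median was 0.51 over 4 genes. There the list medians were 0.49 for other glutathione genes and 0.57 for other detoxifying targets with AR7, and 0.50 with CA39 and 0.74 with CA77 for aryl hydrocarbon receptor targets. The counts were 2, 1 and 1 for other glutathione genes with AR7, CA39 and CA77, 0 for NADPH supply with AR7, 0 for heme and iron with each compound, and 0 with CA39 for other detoxifying targets and for autophagy receptors.

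A 1.5-fold threshold, which admits smaller differences, gave 7 NRF2 genes with AR7. In the lists it gave 10 and 8 other glutathione genes with AR7 and CA77, 7, 5 and 5 other detoxifying targets with AR7, CA39 and CA77, 2 NADPH supply, 2 heme and iron and 1 aryl hydrocarbon receptor gene with AR7, and 1 other thioredoxin and peroxide gene with CA39. Of the 5 detoxifying targets with CA39, 3 were higher and 2 lower. Past 1.5-fold higher were 3.26% (AR7), 6.91% (CA39) and 3.74% (CA77) of all genes. A background offset of 50 left 1 NRF2 gene past 2-fold with CA39. The median over probes gave 1 other thioredoxin and peroxide gene with CA39, no floor and no filter gave 2 aryl hydrocarbon receptor genes with CA39, and genes detected on all arrays left 0 autophagy receptors with CA39. The processed signal gave 0 NADPH supply genes with AR7 under both scalings and 3 other detoxifying targets with CA77 under quantile normalization, and the ATF4 median with CA39 was 0.28 with its 75th percentile scaling and 0.31 with the deposited series table.

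Counts over all genes ranged widely over the alternatives. For AR7 they were 116 to 908 higher (501 as reported) and 47 to 405 lower (108), for CA39 455 to 1928 (1030) and 223 to 1100 (324), and for CA77 101 to 1052 (542) and 73 to 768 (154). Of the calls with AR7, 82.3% were higher, against 71.7% with median scaling (509 and 201), 65.2% with the floor at the lowest detected signal and 58.6% in grid rows over 160 (116 and 82). With CA77 it was 77.9%, against 65.0% with the 75th percentile of the processed signal (814 and 439) and 65.1% with the deposited series table (794 and 425), 58.0% among genes detected on all arrays and 43.3% in grid rows over 160, where more genes were lower (106 and 139). Dim probes limit these counts, and among the NRF2 genes they limit Ptgr1.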
